A study of Mus musculus with 6 samples.

Results

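The noncanonical BAF complex is a form of the SWI/SNF chromatin remodellers, which use ATP to slide or evict nucleosomes. It is built on an ATPase and core subunits that other SWI/SNF forms also use, and is set apart by BRD9 and by BICRA or BICRAL, which take the place of subunits found in canonical BAF and in PBAF. BRD9 carries a bromodomain, a fold that binds acetylated lysines, and in blood cells the complex is known for its presence at promoters and at sites bound by the insulator protein CTCF. Here 10 genes for its subunits were followed among the 55487 genes of a bulk RNA-seq table: Brd9, Bicra, Bicral, Smarca4, Smarcc1, Smarcd1, Ss18, Bcl7a, Bcl7c and Actl6a. They were chosen by name, as known subunits of the complex, and were found in the table by their Ensembl identifiers.

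The 6 libraries came from GFP+ bone marrow cells of femora and tibiae of C57BL/6 recipients, CD45.1(+) CD45.2(-), that had been irradiated with 450 cGy given 2 times and had received 1000 leukemic marrow cells. In both groups the donor cells were CD45.2(+) Mx1-Cre Brd9fl/fl and carried MLL-AF9 (MA9), a fusion oncogene that produces acute myeloid leukemia. Recipients were given 3 injections of PBS (3 libraries) or of pIpC at 20 mg/kg (3 libraries), and marrow was taken 10 days after injection. Polyinosinic-polycytidylic acid (pIpC) induces interferon, which switches on the Mx1 promoter and so Cre, and Cre removes the loxP-flanked part of Brd9; the control cells carried the same Cre and floxed alleles without this induction, and no pIpC-treated cells without floxed Brd9 were among the libraries, so pIpC itself and the deletion cannot be told apart. The study's methods describe the recipients as 6 weeks old and irradiated with 450 cGy at a sublethal dose, which differs from the labels. The study also describes its RNA-seq comparison of pIpC with PBS as made on c-Kit+ bone marrow cells, whereas the labels give GFP+ cells. Which sort holds for these libraries was not settled. Whether each library was 1 animal or a pool was not given, so p-values measure the spread between these libraries.

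The floxed part of Brd9 spans exons 4 to 6 of the 16-exon coding transcript, on the plus strand of chromosome 13 (Brd9 lies at chr13:73937811-73960895, GRCm38). These exons are printed because they are the bases that distinguish a deleted from an intact Brd9 mRNA. Capitals mark codon 216, the asparagine of the acetyl-lysine pocket of the bromodomain; exon 4 lies at chr13:73940237-73940297, exon 5 at chr13:73940646-73940790 and exon 6 at chr13:73941944-73942054.
Brd9 exon 4: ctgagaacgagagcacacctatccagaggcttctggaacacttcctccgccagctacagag
Brd9 exon 5: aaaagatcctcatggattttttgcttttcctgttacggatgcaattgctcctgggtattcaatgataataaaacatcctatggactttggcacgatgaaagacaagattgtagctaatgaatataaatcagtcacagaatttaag
Brd9 exon 6: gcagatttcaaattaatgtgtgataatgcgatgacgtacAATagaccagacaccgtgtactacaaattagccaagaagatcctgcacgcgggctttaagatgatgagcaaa
The exons hold 61, 145 and 111 bases. Together they make 317 of the 2407 bases of this transcript (13.2%) and 17.7% of its coding sequence. Because 317 leaves a remainder of 2 when divided by 3, joining exon 3 to exon 7 shifts the reading frame after 133 codons, and the first stop is codon 141, in exon 7. With even coverage and only this transcript of 2407 bases present, loss of these bases alone would lower the count by 0.20 on the log2 scale. The longest annotated Brd9 transcript has 4569 bases, and for longer transcripts that hold these exons the value would be smaller. The value of 0.20 also leaves out any fall in the number of transcripts, which would add to it.

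Before the subunits were compared, the libraries were checked. Recovered reads numbered 19277439 to 22378154 in the PBS libraries and 22348517 to 23586722 in the pIpC libraries, and each subunit had between 330 and 4272 reads in every library. The 3 leukemia genes Hoxa9, Hoxa10 and Meis1, which MLL fusions keep active, summed to 10125 to 10484 normalized counts in PBS and to 470 to 527 in the libraries labelled pIpC. Markers of other cells moved with the groups: every pIpC library was above every PBS library for 8 of 8 neutrophil, 10 of 10 erythroid, 9 of 9 B cell and 9 of 9 T and NK cell markers, whereas of 9 macrophage markers 5 were so placed and 3 lay below. Of all 15020 genes tested, 30.5% were so placed and 26.3% lay below. At most 3 reads in any PBS library were found for 6 of the erythroid, 4 of the B cell and 4 of the T and NK cell markers. Of the last, Cd3e, Cd3g and Cd8a averaged under 10 normalized counts and were not tested. The neutrophil sum ran from 14248 to 33616 in PBS and from 1868660 to 1943650 in pIpC, the erythroid sum from 20.8 to 37.3 and from 3986 to 5991, the B cell sum from 137 to 304 and from 1378 to 2659, the T and NK cell sum from 188 to 320 and from 3938 to 4566, and the macrophage sum from 12650 to 16769 and from 8168 to 9746. The erythroid genes Slc4a1 and Rhag had 0 reads in all PBS libraries. In such bulk samples fewer cells of a type and less RNA per cell cannot be told apart, and the part of cell composition in the subunit levels was not tested.

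PBS replicate 3 stood apart from the other controls. Its difference from the mean of the other PBS libraries correlated with transcript length across 15005 genes (r = -0.31 on log2 length, where genes are not independent replicates). Computed alike, r was 0.29 and 0.23 in PBS replicates 1 and 2, whose reference held PBS replicate 3, and between -0.06 and 0.04 in pIpC. The median absolute difference on the log2 scale was 0.35 and 0.32 in PBS replicates 1 and 2 and 0.60 in PBS replicate 3. Relative to PBS replicates 1 and 2, the median was 0.86 on the log2 scale among the shortest of 10 equal bins of transcript length and -0.86 among the longest. It held the lowest of the 6 values for 8 of the 10 subunits and the highest for Ss18 and Bcl7c. The coefficient of variation of the subunits had a median of 19.6% in PBS and 5.84% in pIpC, and was larger in PBS for 8 of 10. For that reason each subunit below is given in every library, and again without this one.

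**Figure D1:**
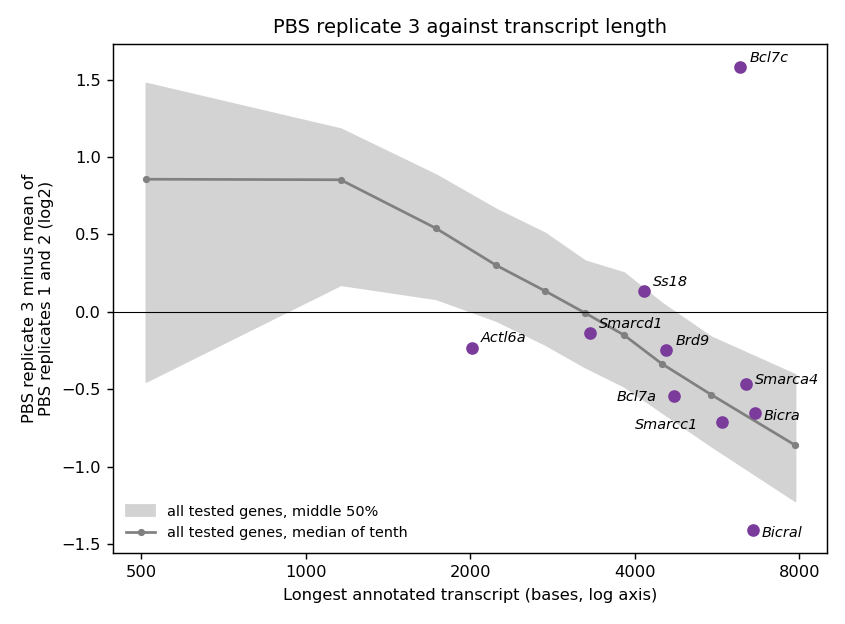
Difference between PBS replicate 3 and the mean of PBS replicates 1 and 2 (log2, vertical axis) against the length of the longest annotated transcript (bases, log axis). The grey line joins the medians of 10 equal bins of the tested genes by length, from 0.86 in the shortest to -0.86 in the longest, the band holds the middle 50% of genes of each bin, and the purple points are the 10 subunits; Bcl7c lies far above the line at 1.58 and Bicral below it at -1.41.

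Comparing pIpC with PBS asks how the subunit genes of the complex were expressed after induction of Cre directed at one of them. Of the 10 subunits, Actl6a and Bcl7a were higher in the libraries labelled pIpC, Ss18 was lower, and the other 7 did not pass the test (limma on log2(normalized count + 1), Benjamini-Hochberg adjusted p under 0.1). Over all 15020 genes tested, 45.3% were called, 25.0% higher and 20.4% lower, so 3 of 10 was no larger a share than the background. The median log2 fold change of the subunits was 0.24, beside 0.01 over all genes. Without PBS replicate 3 the calls were 5 of 10, with Smarcc1 lower and Bcl7c higher added to the same 3, beside a background of 65.1% (34.5% higher and 30.6% lower), and the median was 0.10, beside 0.01 over all genes. With the trend of each library with transcript length removed, an analysis added after seeing the data, the same 3 subunits were called, beside a background of 52.7% (28.6% higher and 24.1% lower), and the median fell to 0.0047, beside 0.024 over all genes, with 6 subunits above 0 and 4 below.

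**Figure D2:**
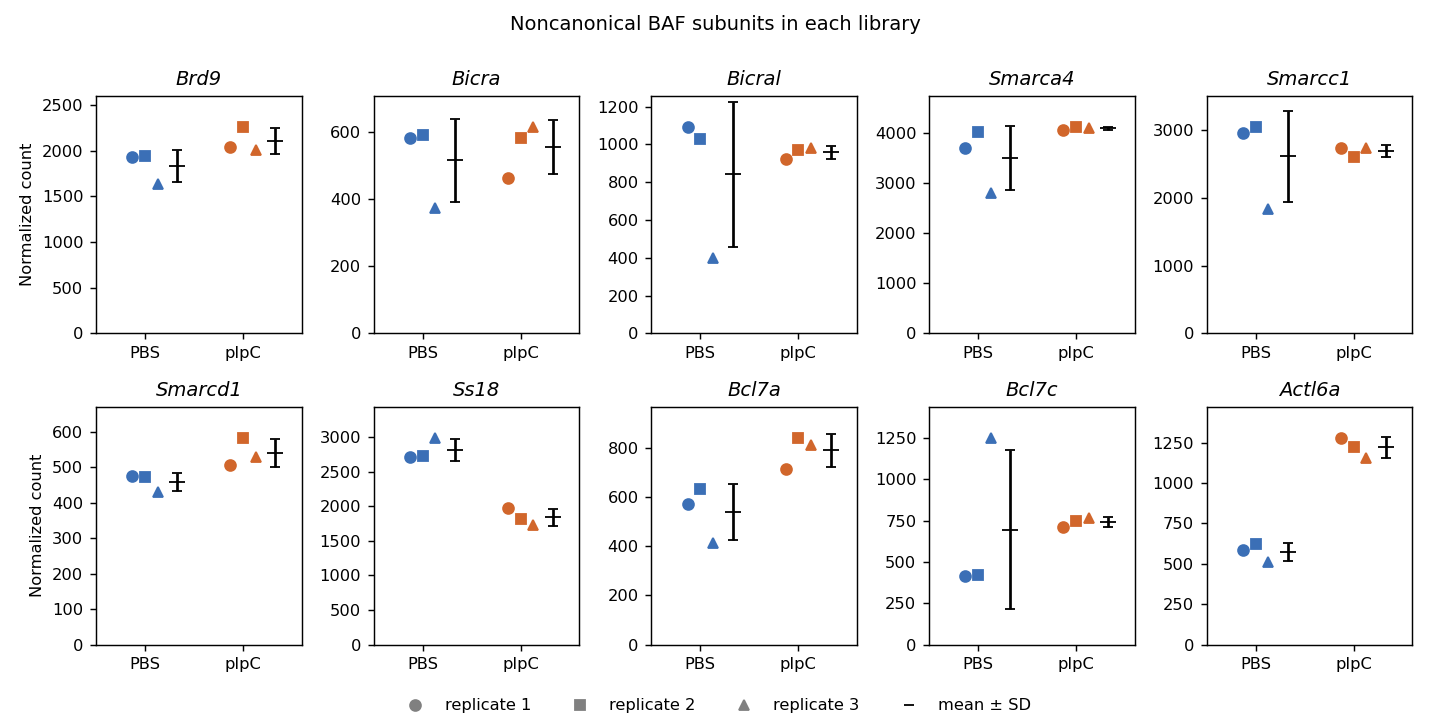
Normalized counts (vertical axes, from 0) of the 10 subunit genes in the 3 PBS (blue) and 3 pIpC (orange) libraries, each symbol 1 library, with black bars for mean ± SD. Brd9, Smarca4, Smarcd1, Bcl7a and Actl6a (pIpC higher) and Ss18 (pIpC lower) are separated between the groups. PBS replicate 3 (blue triangle) lies away from the other controls for most genes, most of all for Bicral and Bcl7c.

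Brd9, the gene targeted by Cre, was measured first as a check on the labels. Its normalized count, the number of reads after division by one size factor per library, was 1927, 1946 and 1632 in PBS replicates 1 to 3. It was 2036, 2263 and 2011 in the libraries labelled pIpC. Every pIpC library was above every PBS library, as for 30.5% of all genes tested, so the gene-level count did not fall with the label. The log2 fold change was 0.20 (95% confidence interval -0.10 to 0.50, limma adjusted p = 0.259, n = 3 per group), and without PBS replicate 3 it was 0.12 (-0.05 to 0.28, limma adjusted p = 0.201). With the length trend removed it was 0.03 (limma adjusted p = 0.775). An exact two-sided permutation test gave p = 0.1, the smallest that 3 against 3 libraries allow. The table counts reads per gene and holds no value per exon, so whether the reads of exons 4 to 6 printed above were absent was not analysed here. The study reports lower Brd9 mRNA after the excision in whole bone marrow of mice without the leukemia, by PCR and at a later time than here. It adds that RNA-seq of stem and progenitor cells gave further support. The study also reports inefficient depletion of Brd9 in GFP+ marrow of some pIpC-treated leukemic mice. Whether either holds for these libraries was not tested.

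BICRA and BICRAL are alternative scaffold subunits that tie BRD9 to the complex. Bicra, at chr7:15970672-16047921, had 582, 592 and 373 normalized counts in PBS and 463, 583 and 616 in pIpC. The groups overlapped, and the log2 fold change was 0.12 (-0.41 to 0.66, limma adjusted p = 0.693). Bicral, at chr17:46798120-46858482, had 1094, 1029 and 399 in PBS and 921, 969 and 983 in pIpC. The pIpC values all lay between the low value of PBS replicate 3 and the other controls. Its log2 fold change was 0.32 with a wide interval (-0.58 to 1.22, limma adjusted p = 0.535), and without PBS replicate 3 it turned to -0.15 (-0.32 to 0.02, limma adjusted p = 0.12). Bicra also turned, to -0.09, without that library. With the length trend removed Bicral was at 0.0060 and Bicra at -0.19. Over 772 of its 6851 exon bases, Bicral overlaps an antisense gene, whose reads cannot be separated if the libraries are unstranded, as the labels state and the study's methods do not.

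Smarca4 encodes BRG1, the ATPase that drives the remodelling of nucleosomes. Its level per kilobase of merged exons was the highest of the 10, at 540 ± 97.8 normalized counts per kb in PBS and 631 ± 5.43 in pIpC (SD, n = 3). Its counts were 3696, 4008 and 2790 in PBS against 4052, 4122 and 4088 in pIpC. The groups did not overlap, with pIpC higher, yet the log2 fold change of 0.24 did not pass the test (-0.14 to 0.62, limma adjusted p = 0.276). Without PBS replicate 3 it was 0.09 (-0.06 to 0.23), and with the length trend removed it turned to -0.06.

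SMARCC1 (BAF155) and SMARCD1 (BAF60A) belong to the structural core onto which the other subunits assemble. Smarcc1 had 2956, 3055 and 1837 normalized counts in PBS and 2742, 2598 and 2745 in pIpC. As with Bicral, the pIpC values fell between PBS replicate 3 and the others, and the log2 fold change was 0.08 (-0.42 to 0.58, limma adjusted p = 0.789). Without PBS replicate 3 it was -0.16 (-0.30 to -0.02), past the threshold with limma adjusted p = 0.0569, and with the length trend removed -0.19 (limma adjusted p = 0.132). Smarcd1 had 476, 472 and 430 in PBS and 506, 583 and 529.9 in pIpC. All pIpC values were above all PBS values, with a log2 fold change of 0.23 (-0.08 to 0.55, limma adjusted p = 0.213). Without PBS replicate 3 it was 0.19 (-0.04 to 0.41, limma adjusted p = 0.134).

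SS18 is a small adaptor held by the ATPase module. Ss18, at chr18:14624198-14682914 on the minus strand, had 2718, 2734 and 2989.9 normalized counts in PBS. In the pIpC libraries it had 1977, 1813 and 1729.96, so that the highest pIpC value lay well under the lowest control. It fell by 0.61 on the log2 scale (SE 0.12, limma adjusted p = 0.00629), to 0.654 of the PBS level. Ss18 was the subunit with the smallest spread among controls (5.42%), and without PBS replicate 3 the fall was 0.57 (limma adjusted p = 0.000192). A processed pseudogene with 97.8% identity over 1161 bases, Gm1826, had a mean of only 1.13 normalized counts.

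BCL7A and BCL7C are small subunits of the same ATPase module. Bcl7a, at chr5:123343834-123374992, had 571, 635 and 413 normalized counts in PBS and 717, 842 and 813 in pIpC. It rose by 0.57 on the log2 scale (0.12 to 1.02, limma adjusted p = 0.056), and the groups did not overlap. The call was near the threshold: it was lost when any one of the pIpC libraries was left out, and held without PBS replicate 3 at a smaller size (0.39, limma adjusted p = 0.00892). Bcl7c, at chr7:127661456-127708933, had 417, 418 and 1252 in PBS and 711, 749 and 766 in pIpC. Here PBS replicate 3 was far above all other libraries. The log2 fold change was 0.30 (-0.70 to 1.30, limma adjusted p = 0.604) with it and 0.83 (0.63 to 1.02, limma adjusted p = 4.72e-05) without it. Without PBS replicate 1 it was 0.04, and with the length trend removed 0.0034, so neither its size nor its call was stable. The pseudogene Gm3219, identical to Bcl7c over 303 bases, had a mean of 14.4 normalized counts.

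ACTL6A (BAF53A) is an actin-related protein that sits with actin on the ATPase and is typical of dividing progenitors, whereas ACTL6B replaces it in neurons. Actl6a, at chr3:32706298-32726973, had the largest change of the 10. It had 583, 625 and 514 normalized counts in PBS and 1280, 1224 and 1156 in pIpC, with the lowest pIpC value far above the highest control. It rose 2.13-fold, by 1.09 on the log2 scale (SE 0.13, limma adjusted p = 0.000836), and by 1.01 without PBS replicate 3. Actl6a shares 452 of its 3886 exon bases with Mrpl47, a mitochondrial ribosome gene on the other strand. Mrpl47 had 116, 138 and 283 normalized counts in PBS and 303, 237 and 243 in pIpC, below Actl6a in every library, and reads of the overlap cannot be assigned to either gene if the libraries are unstranded. Actl6b had at most 2.04 normalized counts in any library.

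**Figure D3:**
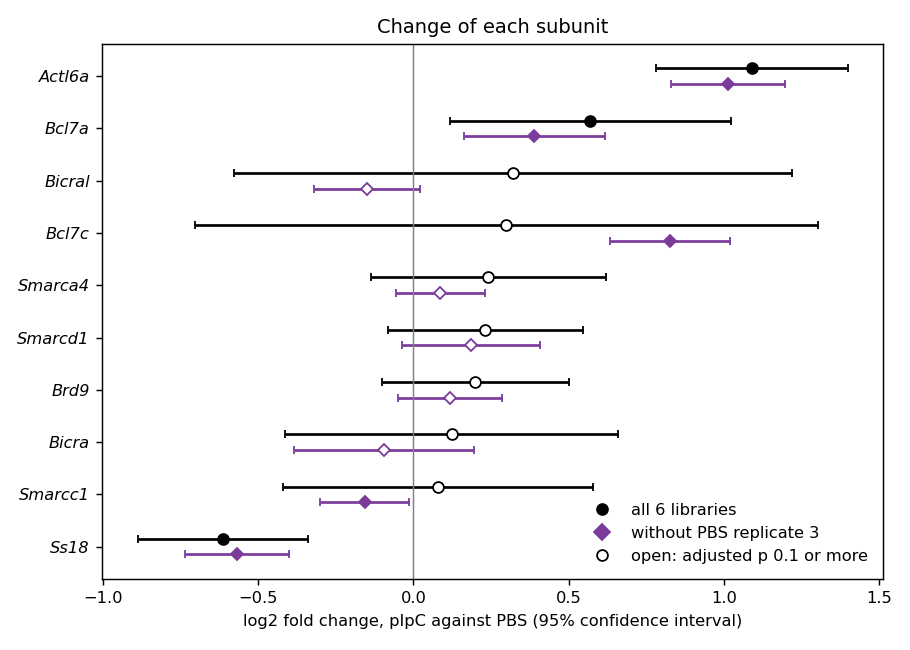
log2 fold change of each subunit, pIpC against PBS, with 95% confidence intervals (horizontal axis), over all 6 libraries (circles) and without PBS replicate 3 (diamonds); filled symbols pass an adjusted p under 0.1. Actl6a, Bcl7a and Ss18 are filled in both, Bcl7c and Smarcc1 only without that library, and the intervals of Bicral and Bcl7c shrink most.

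Groups that did not overlap were found for 6 of the 10 subunits: Brd9, Smarca4, Smarcd1, Bcl7a and Actl6a with pIpC higher and Ss18 with pIpC lower. The same was true of 56.8% of all genes tested, with pIpC higher in 30.5% and lower in 26.3%. The 7 subunits that did not pass the test had log2 fold changes between 0.08 and 0.32, and 3 of them, Bicra, Bicral and Smarcc1, changed sign without PBS replicate 3. PBS replicates 1 and 2 differed from each other by at most 0.15 on the log2 scale for any subunit.

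Several positions in the complex can be filled by one of a set of paralogous proteins, so the balance between paralogues was compared as a log2 ratio of normalized counts per kb of exon in each library. Of 10 ratios, 2 did not overlap between the groups. The ratio of Smarcc1 to Smarcc2 (BAF170) was -1.06, -0.94 and -0.94 in PBS and -1.24, -1.38 and -1.26 in pIpC, so that Smarcc1 was the lower of the pair in all libraries and lower still in pIpC, by a difference of -0.31. PBS replicate 3, which had low counts of both genes, lay with the other controls for this ratio. The ratio of Bcl7a to Bcl7b was -2.07, -1.62 and -3.11 in PBS and -1.48, -1.24 and -1.56 in pIpC, higher in pIpC by 0.84, and by 0.42 without PBS replicate 3. Each gave an exact two-sided permutation p = 0.1, the smallest possible here, and 0.4 after Benjamini-Hochberg adjustment over the 10 ratios.

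The other ratios overlapped between the groups. The level of a ratio depends on the length used, whereas its difference between the groups does not; values are for merged exons, and those for the longest transcript follow where they differ by more than 1.5 times or in sign. Smarca4 exceeded Smarca2 (BRM), the alternative ATPase, by a log2 ratio of 2.05 ± 0.19 in PBS and 2.05 ± 0.03 in pIpC (SD, n = 3), which became 0.81 and 0.80 with the longest transcript. Smarcd1 was below Smarcd2, at -2.80 ± 0.21 and -2.75 ± 0.09, and above Smarcd3, at 4.20 ± 0.72 and 4.11 ± 0.48. Ss18 exceeded its paralogue Ss18l1 by 2.73 ± 0.20 in PBS and 2.21 ± 0.33 in pIpC, which became 3.91 and 3.39. Bicra was below Bicral in every library, at -0.81 ± 0.44 and -1.01 ± 0.17, and Brd9 below Brd7, the bromodomain subunit of PBAF, at -0.92 ± 0.10 and -0.77 ± 0.14. Bcl7c was below Bcl7b, at -1.69 ± 0.52 and -1.12 ± 0.12, whereas Bcl7a against Bcl7c, at -0.58 ± 1.23 and -0.30 ± 0.08, had opposite signs in PBS replicates 1 and 2 (0.06 and 0.21) and in PBS replicate 3 (-1.99). With the longest transcript the means of Bcl7a against Bcl7c turned to 0.22 and 0.49, so which gene was the higher depends on the length used.

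**Figure D4:**
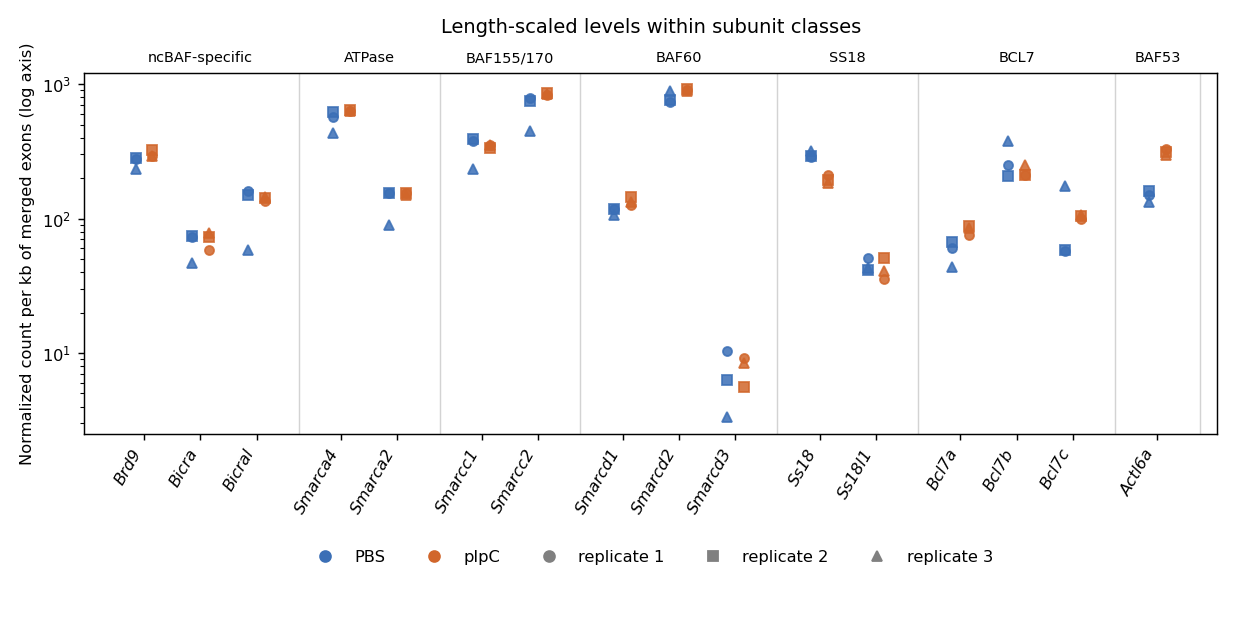
Normalized counts per kb of merged exons (log axis) of the subunits and their paralogues in each library, grouped by position in the complex, PBS in blue and pIpC in orange. Smarca4 lies above Smarca2, Smarcc2 above Smarcc1 and Smarcd2 above Smarcd1 in all 6 libraries, and Smarcd3 is the lowest gene shown.

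Per kilobase of merged exons, the order of the 10 subunits by mean level in PBS was Smarca4 at 540, Smarcc1 at 334, Ss18 at 299, Brd9 at 264, Actl6a at 148, Bicral at 123, Smarcd1 at 114, Bcl7c at 96.3, Bicra at 65.0 and Bcl7a at 56.9 normalized counts per kb. The SD of 86.4 for Smarcc1 was larger than its gap to Ss18, and so were the SDs of 56.0 for Bicral and 66.7 for Bcl7c beside the gaps to their neighbours. The gap between Ss18 and Brd9 was larger than either SD (16.2 and 25.4). In pIpC the order was Smarca4 at 631, Smarcc1 at 344, Actl6a at 314, Brd9 at 303, Ss18 at 195, Bicral at 140, Smarcd1 at 134, Bcl7c at 103, Bcl7a at 83.3 and Bicra at 69.8. Actl6a thus moved up in the order, past Brd9 and Ss18, and Ss18 moved down. The gap between Actl6a and Brd9 in pIpC was smaller than their SDs of 15.98 and 19.96, as was that between Bicral and Smarcd1 beside the SD of 9.84 for Smarcd1. The order depends on the length used: per kb of the longest transcript, a choice added after seeing the data, Ss18 was first in PBS at 678, before Smarca4 at 549, and in pIpC Smarca4 at 641 and Actl6a at 607 were ahead of Smarcc1 at 467, Brd9 at 460.4 and Ss18 at 443. By this measure too Actl6a passed Brd9 and Ss18 moved down.

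Of the other subunits and paralogues (Smarca2, Smarcc2, Smarcd2, Smarcd3, Ss18l1, Bcl7b, Actb and Actl6b), 0 of the 7 tested were called by limma, beside 45.3% of all genes called. Of these 7, 0 had an unadjusted p under 0.05, edgeR called 0 and DESeq2 called 1, Actb. Without PBS replicate 3, limma called 3 of the 7, all higher, beside 65.1% of all genes called and 34.5% called higher. The subunits absent from the noncanonical complex define canonical BAF (ARID1A or ARID1B, DPF proteins), PBAF (ARID2, PBRM1, PHF10, BRD7) or both (SMARCB1, SMARCE1), and 3 of 10 tested were called higher in pIpC and 1 lower, a share near the 45.3% of all genes called. Arid2, the DNA-binding subunit of PBAF, had 7862, 7434 and 3714 normalized counts in PBS and 2783, 3189.7 and 2989 in pIpC. Its log2 fold change was -1.01 (SE 0.29, limma adjusted p = 0.034). It was -1.36 without PBS replicate 3 (limma adjusted p = 1.0e-06) and -1.41 with the length trend removed (limma adjusted p = 2.43e-05). Arid2 lost the call without pIpC replicate 1 (limma adjusted p = 0.114) or pIpC replicate 3 (limma adjusted p = 0.104). Of those called higher, Dpf3, a histone-reading subunit, had 2.60, 4.05 and 3.40 normalized counts in PBS and 24.95, 8.17 and 20.3 in pIpC. It passed the filter on low values only through its pIpC libraries, so its call is no support for a change of the list, and its log2 fold change of 1.997 was 1.01 with a pseudocount of 10 and 0.78, not called, after quantile normalization (limma adjusted p = 0.37). Arid1b and Phf10 were the others called higher, also without PBS replicate 3 but not with the length trend removed. Without PBS replicate 3 the count for this list was 6 of 10, beside 65.1% of all genes.

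Among 8 other bromodomain genes, 1 was called: Brd3, a BET protein, which had 2291, 2043 and 1639.8 normalized counts in PBS and 3216, 3573 and 3428 in pIpC (log2 fold change 0.79, SE 0.15, limma adjusted p = 0.0072). Of 14 tested ATPases of other remodellers, 2 were higher and 1 lower. Chd3, a NuRD ATPase, rose by 2.98 (SE 0.27, limma adjusted p = 0.00026), from 166, 142 and 89.4 to 825, 1217 and 1048, and Chd9 fell by 2.44 (SE 0.21, limma adjusted p = 0.000231), from 12531, 12572 and 7715 to 1909, 2172 and 1849.9. Both changes were larger than that of any subunit of the complex. Chd4 was the other ATPase called higher, also without PBS replicate 3 but not with the length trend removed. Without PBS replicate 3 the counts were 3 of 8 bromodomain genes and 9 of 14 ATPases, beside 65.1% of all genes, and with all libraries 1 of 8 and 3 of 14, beside 45.3%.

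**Figure D5:**
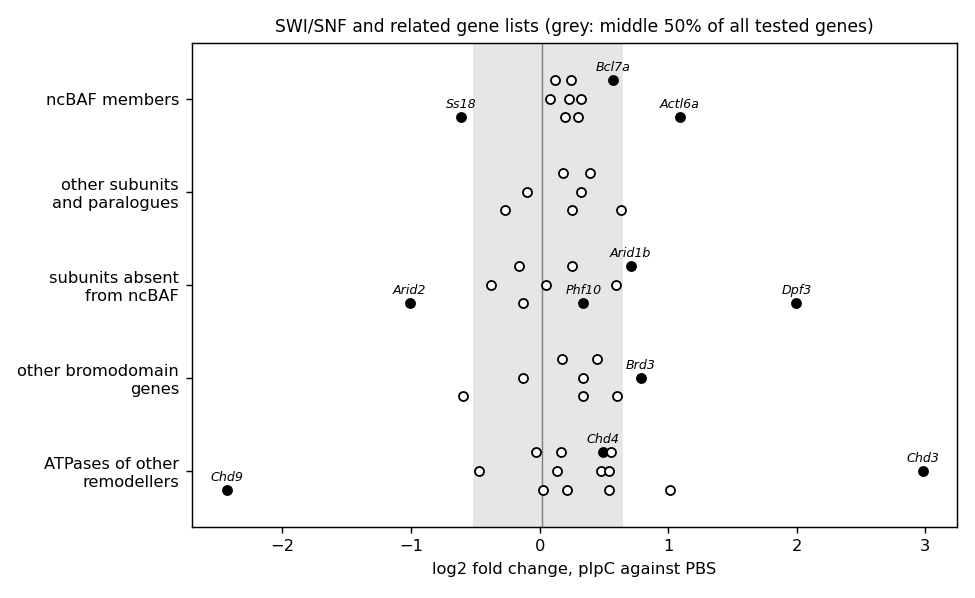
log2 fold change, pIpC against PBS (horizontal axis), of each tested gene of the noncanonical complex and of 4 related lists; filled points pass an adjusted p under 0.1 and are named. Grey marks the middle 50% of all tested genes, from -0.51 to 0.64, in which 8 of the 10 subunits lie.

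The genes whose profile over the 6 libraries was most like that of Brd9 were sought by the root mean square difference of centred log2 values, among 10486 genes with a mean of at least 100 normalized counts. Among the nearest were Ints3 (0.03), Zdhhc16, Trdmt1 and Gmeb1 (0.04 each). Smarcd1 ranked 8 (0.05) and Smarca4 ranked 225 (0.09), whereas Ss18, Actl6a and Bcl7c ranked 5908, 6148 and 8005. The subunits thus differed widely in how near their profiles lay to that of Brd9. Ctcf had 4336, 4418 and 2902 normalized counts in PBS and 4511, 4789.7 and 4828 in pIpC, a log2 fold change of 0.30 that did not pass the test (limma adjusted p = 0.243). Every pIpC library was above every PBS library, as for 30.5% of all genes tested. Without PBS replicate 3 the log2 fold change of Ctcf was 0.11 (limma adjusted p = 0.177).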

How the data were processed

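Counts per gene divided by one size factor per library were deposited by the authors, and were treated as a signal with no further scaling. The submitters' processing notes name HISAT2 2.2.1, SAMtools, featureCounts (Subread), edgeR and GRCm38, whereas the study's methods describe nf-core/rnaseq with STAR and RSEM; which was used for this table is not given in the sources used here. Libraries were poly(A)-selected and, per the labels, unstranded, whereas the study's methods describe a stranded kit for sorted mouse cells; which holds for these libraries was not settled. Every value was a whole multiple of that of 1 read (100% within 0.01 read in each library), so reads were recovered. 0 columns were left out, and 55227 of 55487 identifiers matched GENCODE M21, from which positions, lengths and sequences came.

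The 15020 genes that averaged 10 or more normalized counts were tested with limma 3.58.1 (R 4.3.3, intensity trend) on log2(normalized count + 1), without a block, at a Benjamini-Hochberg adjusted p under 0.1. On this scale fold changes of low genes are understated. Replicate numbers were checked for pairing by correlating deviations from group means. Alternatives were pseudocounts of 0.1 and 10, a filter of 50 or none, quantile normalization, median-centring, each library left out, a replicate block, no intensity trend, edgeR 4.0.16 and DESeq2 1.42.0 on recovered reads, and a threshold of 0.05; removal of the trend with transcript length was chosen after seeing the data. Ratios, and, as a choice made after seeing the data, levels per kb, were also computed with the longest transcript; ratios also with pseudocounts of 0 and 10. Exact tests used scipy 1.17.1. Scripts were tested on simulated data.

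The 10 subunits, the other lists and the markers were chosen with earlier results of these data known. All members were named, and of each other list the highest and lowest called gene and the paralogues in ratios; other called genes are named without values. Actl6a/Actl6b was not computed, since Actl6b had hardly any reads. Some genes are not reported here.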

Additional observations from a re-analysis of the deposited data

How the results depend on the processing

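Actl6a and Ss18 passed the threshold under each of the 18 alternatives, and Bcl7a under 14, failing without any one pIpC replicate and at an adjusted p under 0.05. Brd9 did not pass under any (log2 fold change 0.03 to 0.24, limma, edgeR or DESeq2 adjusted p 0.201 to 0.775). Leaving out 1 library at a time gave 2 to 5 called subunits, 0 to 3 other subunits and paralogues, 1 to 6 subunits absent from the complex, 1 to 3 bromodomain genes, 2 to 9 ATPases and 2 to 5 ratios without overlap. For the ratios, leaving out a library can only remove overlap, so a count of at least 2 was fixed in advance. The background moved too, with 4650 to 9783 of the 15020 genes tested called in these fits. Log2 fold changes that turned then ranged from -0.094 to 0.25 for Bicra, -0.15 to 0.58 for Bicral, -0.16 to 0.21 for Smarcc1, -0.012 to 0.38 for Smarca2, -0.090 to 0.70 for Smarcd3 and -0.24 to 0.021 for Ss18l1. Quantile normalization gave Smarcc1 -0.069, Smarcd3 -0.12 and Brd7 -0.077, with 1 subunit absent from the complex and 2 bromodomain genes called; it moved the median of all genes to -0.12, and 3244 of 7322 called genes were then higher, against 3750 of 6808. Removing the length trend gave Bicra -0.19, Smarca4 -0.063, Smarcc1 -0.19, Smarca2 -0.028 and Brd7 -0.0014, with 3 subunits called (background 52.7%), 2 paralogues, 2 bromodomain genes and 6 ATPases. DESeq2 called 1 paralogue, and an adjusted p under 0.05 left 2 subunits absent from the complex. The causes of these shifts were not tested. Of 412 comparisons of 23 named genes with their reported value, 384 stayed on the same side, 7 lost and 7 gained the call and 14 turned; Arid2 and Dpf3 were among the losses. The 80 alternative differences of single ratios, other than those for another length, which cannot move, shifted by less than the larger group SD. For a left-out library this was fixed in advance, since leaving out 1 of 3 cannot move a mean by a full SD. That part is no test of stability. With 1 library left out, the difference turned in sign for Bcl7a against Bcl7c (-0.44 to 0.66) and Smarcd1 against Smarcd3 (-0.44 to 0.27). It also turned for Bicra against Bicral (-0.35 to 0.05), Smarcd1 against Smarcd2 (-0.08 to 0.12) and Smarca4 against Smarca2 (-0.09 to 0.10). Levels of the ratios did move with length.

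Replicate numbers did not pair the libraries: deviations of same-numbered libraries correlated at -0.12, 0.14 and 0.04. With a replicate block 6095 genes and the same number of subunits, 3, were called, and Brd9 was at 0.20 (limma adjusted p = 0.375).

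Precision is limited by 3 libraries per group, by the distance of PBS replicate 3 from the other controls, and by counting error, each subunit having at least 330 reads in every library. Values per exon were not analysed here. Overlapping genes on opposite strands cannot be separated if the libraries are unstranded, and marker genes of other cell types moved with the groups.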
